A study of Mus musculus with 6 samples.

Results

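The genes described are those that encode mitochondrial ribosomal proteins, taken by symbol: every gene of the deposited mRNA table whose name begins with Mrpl or Mrps followed by a digit, leaving out symbols that contain -ps, which mark pseudogenes. This gave 78 of 22298 genes, of which 51 encode proteins of the large subunit, 26 encode proteins of the small subunit, and Mrps36 was assigned to neither. The study sequenced total RNA from 6 samples of GC-1spg, an immortalized mouse line derived from type B spermatogonia, to ask what depletion of METTL3, the catalytic subunit of the complex that writes N6-methyladenosine on mRNA, does to the transcriptome. The 3 control libraries received a negative control siRNA (si-NC), although their labels tag them as untreated, and the other 3 received an siRNA against METTL3 (si-METTL3). Both groups were grown in DMEM with 10% FBS, transfected at 60% density and lysed in TRIzol 48 h later, and the labels print the same sequence for both siRNAs, so the control sequence is not known. The labels do not say whether the 3 libraries of a group came from separate cultures, so p-values measure the spread between these libraries, which may be technical.

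The mitochondrial ribosome translates the few mRNAs encoded by mitochondrial DNA, all of which specify core proteins of the respiratory chain and ATP synthase. Its RNAs are made inside the organelle, but all of its proteins are encoded in the nucleus, made on cytosolic ribosomes and imported. Some descend from the proteins of the bacterial ribosome, while others have no bacterial counterpart at the same place and were added during the evolution of mitochondria. Male germ cells change their mitochondrial metabolism as they leave the spermatogonial stage.

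Library totals ran from 22146057 to 37698956 counts. The mitoribosomal protein genes took 0.489%, 0.455% and 0.516% of all counts in si-NC replicates 1, 2 and 3, and 0.425%, 0.401% and 0.397% in si-METTL3 replicates 1, 2 and 3. All 78 passed the filter on low counts, and 77 had at least 100 counts in every library. Mettl3 itself was read 606, 578 and 683 times in si-NC and 142, 134 and 136 times in si-METTL3. Its log2 fold change was -1.79 ± 0.14 (SE, n = 3 libraries per group, adjusted p = 0.000579, edgeR quasi-likelihood test with Benjamini-Hochberg adjustment), so the targeted mRNA followed the labels. Of the spermatogonial markers listed to check the labelled cell type, Sall4 was at 0 in all 6 libraries, Dazl never exceeded 1 count, Ddx4 ran from 1 to 7 counts and Uchl1 from 865 to 1516. Of the 12 markers 5 were tested, and Gfra1 was higher in si-METTL3, at 88, 78 and 118 against 140, 89 and 115 counts (log2 fold change 0.65 ± 0.17, adjusted p = 0.0389, edgeR). Kit had 17, 14 and 53 counts against 55, 36 and 53, and Zbtb16 had 1, 2 and 35 against 18, 28 and 18, so both were low in si-NC replicates 1 and 2 and higher in the other 4 libraries.

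The libraries also differed in mRNA of tissues that GC-1spg cells do not come from. The summed level of 18 lung markers was 82.4, 76.3 and 149 CPM (counts per 1000000 counts of the library) in the control libraries and 198, 202 and 161 CPM in the knockdown libraries, with none of the 18 at 0 in all libraries. Most of the sum in si-NC replicates 1 and 2 was Abca3, at 73.4 and 65.8 CPM, which other cells also express, while Sftpc, the defining surfactant gene, had counts of 38, 1 and 1131 in the controls against 1503, 1065 and 790 after knockdown. The 8 blood markers in the table summed to 0.616, 0.943 and 12.1 CPM in the controls and 19.5, 16.8 and 12.9 CPM after knockdown, and 13 macrophage and endothelial markers ran from 16.5 to 34.6 CPM against 36.9 to 46.6 CPM. In all 3 lists si-NC replicate 3 stood above the other si-NC libraries and below each si-METTL3 library. Of 10 gonadal somatic markers, Cyp17a1, Insl3 and Hsd3b1 were at 0, and the sum was 237 to 250.04 CPM in si-NC and 324 to 345 CPM in si-METTL3. Most of that sum was Wt1, at 169, 160 and 173 against 241, 267 and 257 CPM, whereas Gata4 was lower (log2 fold change -0.41 ± 0.10, adjusted p = 0.0299, edgeR) and the median of the 6 tested markers was -0.04. The part of these differences in the results below was not tested. The mitoribosomal protein share of counts was highest in si-NC replicate 3, the control library with the most lung and blood marker RNA. That share was lower in each si-METTL3 library than in any si-NC library, and each si-METTL3 library had more of this marker RNA. Whether the share and the marker RNA are related was not tested. In bulk RNA, fewer cells of a type and less RNA per cell cannot be told apart.

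The mitoribosomal protein genes were mostly well expressed in these cells. Their mean FPKM over the 6 libraries, a level scaled to transcript length, had a median of 33.8, against 8.76 for all 13082 tested genes. It was at least 50 for 22 genes, between 10 and 50 for 49, and under 10 for 7. Mrpl33, a small protein of the large subunit, was highest at 275 FPKM, followed by Mrpl12 and Mrps18b at 129 each, Mrpl28 at 110, Mrpl30 at 109, Mrpl20 at 105 and Mrps7 at 104. The lowest was Mrps30 at 0.713 FPKM, with 44 to 115 counts per library, far below every other member although its protein is a structural component of the large subunit. The median level was 34.9 FPKM for large-subunit genes and 28.8 FPKM for small-subunit genes, so the subunits were alike in their median level, and the genes within each spread far more widely.

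**Figure D1:**
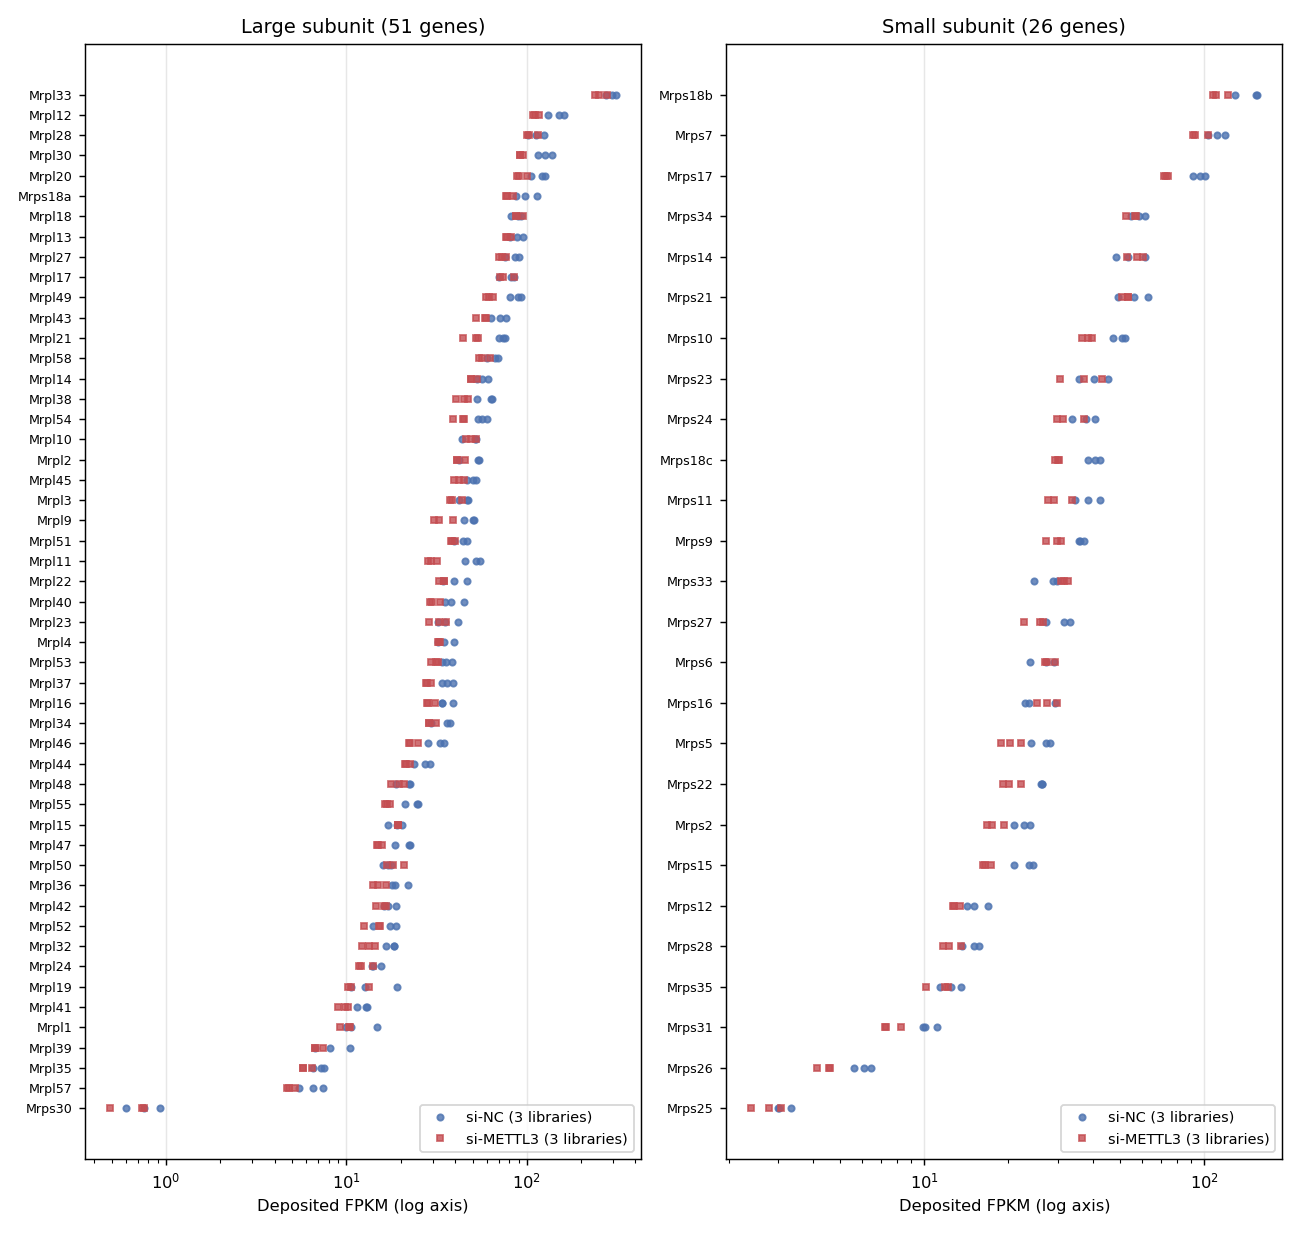
Deposited FPKM (log axis) of the 51 large-subunit and 26 small-subunit genes, ordered by mean level, with 1 point per library (circles, si-NC; squares, si-METTL3); Mrps36 is not drawn. Most genes lie between 10 and 100 FPKM, Mrpl33 stands highest and Mrps30 lowest, and for many genes the squares lie to the left of the circles.

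Promoters are shown because the genes share sequence features there and because some of them start beside another gene. Of the 78 genes, 69 matched the RefSeq promoter windows used (mouse assembly GRCm38.p6, 250 bases before to 50 bases after the annotated start). The core bound by ETS family factors such as GABP, CCGGAAG, was present on either strand in 25 of 69 windows (36.2%) against 9.12% of all 27025 windows. The NRF1 half-site CATGCGC was in 8 windows (11.6%, against 4.04%), and the YY1 core AAGATGG in 13 (18.8%, against 6.48%). The E-box CACGTG was in 7.25% of member windows and 7.24% of all windows, the GC box GGGCGG in 49.3% and 35.9%, CCAAT in 39.1% and 37.9%, and TATAAA in 5.8% and 14.2%. Member windows were also richer in G and C, with a median of 58.3% against 52.7%. The 2 promoters below show these cores in genes whose mRNA fell and are printed 5′ to 3′ on the gene's strand, up to the first annotated exon, with the core in capitals: Mrpl9 (chr3:94443198-94443317, plus strand, with the NRF1 half-site on both strands, so that its copies overlap) and Mrps22 (chr9:98601680-98601799, minus strand, ETS core).
Mrpl9: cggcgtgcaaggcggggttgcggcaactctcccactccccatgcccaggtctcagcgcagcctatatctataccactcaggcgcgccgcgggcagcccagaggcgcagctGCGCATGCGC
Mrps22: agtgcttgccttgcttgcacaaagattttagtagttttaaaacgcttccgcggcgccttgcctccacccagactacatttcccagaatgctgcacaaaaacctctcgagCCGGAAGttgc

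Both of these genes were lower after the knockdown, as described below. The ETS core was in 5 of 23 windows of the genes that fell and in 20 of 46 windows of genes that did not pass the test, a difference that was not tested. A motif match is a description of letters and does not show that a factor is bound.

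In si-METTL3, 25 of the 78 mitoribosomal protein genes were lower and none was higher at an adjusted p under 0.05 (edgeR, over all 13082 tested genes), a share of 32.1%. Of all tested genes, 10.2% were lower and 8.67% were higher. The changes were small: the 25 genes fell by 19.3% to 41.1%, and the median log2 fold change of all 78 was -0.27, a fall of 17.0%, against 0.03 for all tested genes. The sign was negative for 71 genes and positive for 7. An unadjusted p under 0.05 was reached by 44 genes, none of them with a positive fold change. In 45 genes (57.7%) all 3 si-METTL3 libraries were below all 3 si-NC libraries in CPM, against 21.3% of all tested genes, and in 0 genes were they all above, against 20.2%.

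**Figure D2:**
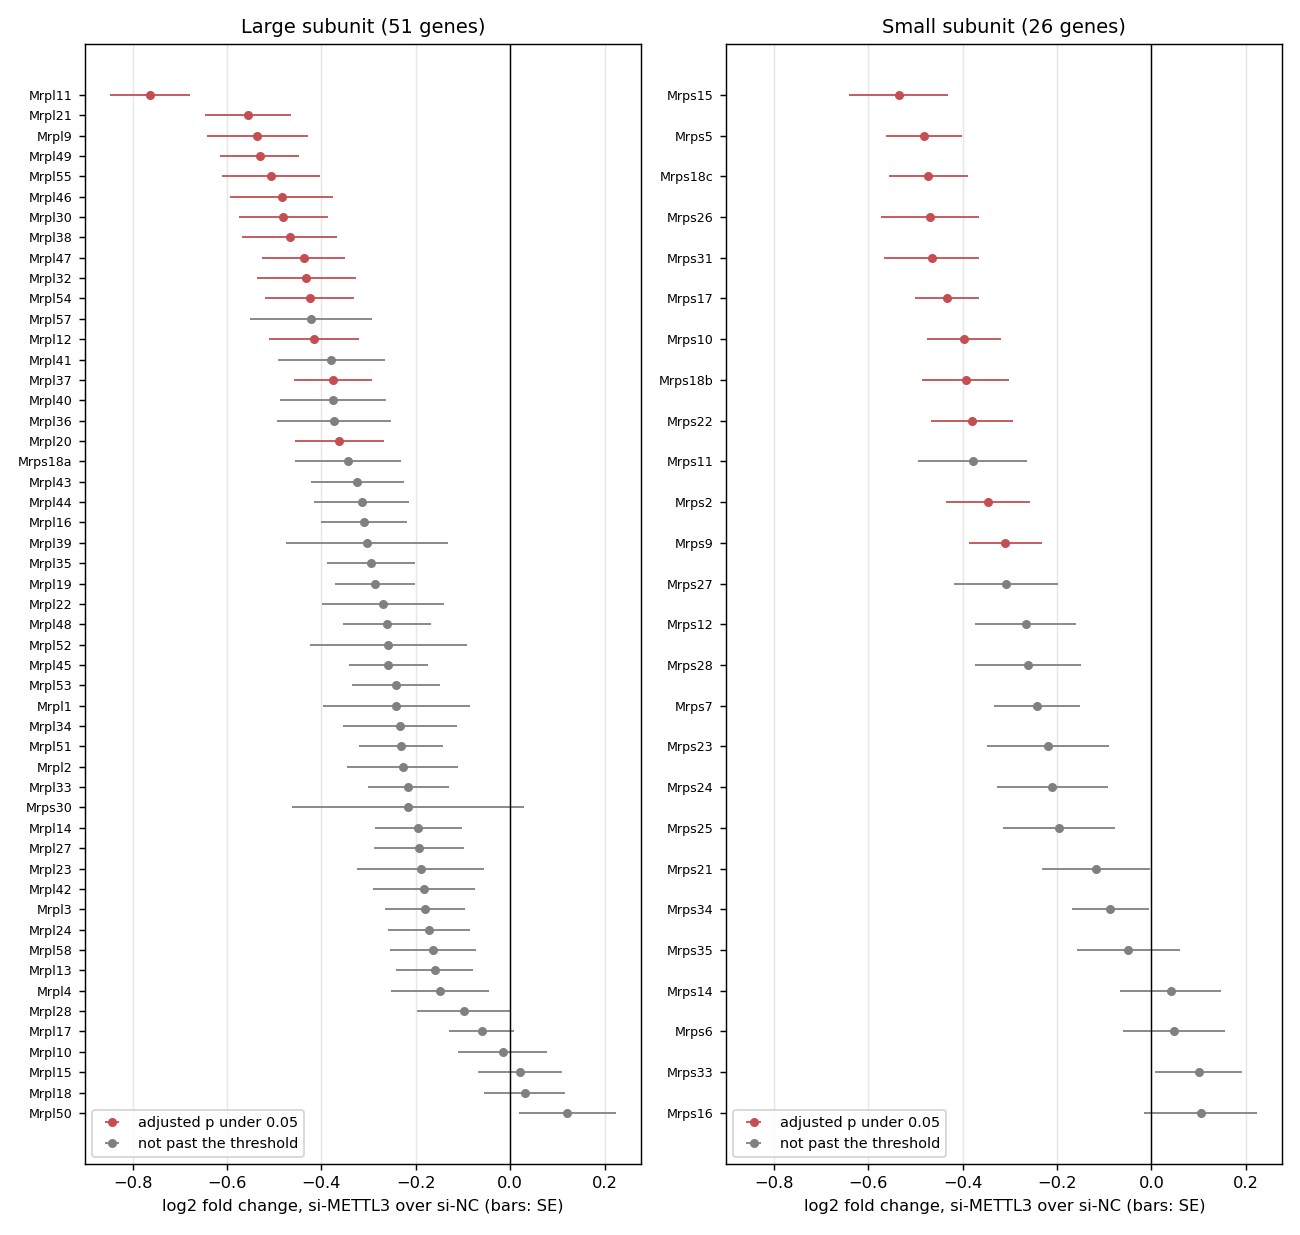
Log2 fold change of si-METTL3 over si-NC for each large-subunit and small-subunit gene, with bars of 1 SE (edgeR, n = 3 libraries per group); red marks an adjusted p under 0.05 and Mrps36 is not drawn. All 25 red points lie below 0, from Mrpl11 at -0.76 to Mrps9 at -0.31, and the highest grey point is Mrpl50 at 0.12.

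Among large-subunit genes, 14 of 51 were lower, with a median log2 fold change of -0.27. The largest fall of all was that of Mrpl11 (ENSMUSG00000024902, chr19:4962147-4966999, GRCm38), the counterpart of bacterial L11 at the site where translation factors bind. It was read at 100.4, 92.1 and 109 CPM in si-NC and at 62.1, 58.2 and 57.6 CPM in si-METTL3, so the groups were separated by a wide gap. Its log2 fold change was -0.76 ± 0.09 (SE, adjusted p = 0.00251, edgeR), and it stayed past the threshold whichever library was left out, with adjusted p from 0.00122 to 0.0237. Mrpl21 (chr19:3282901-3292837, GRCm38), the counterpart of bacterial L21, was at 73.2, 68.1 and 75.9 CPM in si-NC and 50.9, 52.4 and 44.5 CPM in si-METTL3. Its groups did not overlap either, and its log2 fold change of -0.56 ± 0.09 (adjusted p = 0.00941, edgeR) was the only other one to hold in all 6 fits with a library left out. By annotation Mrpl21 overlaps another protein-coding gene, Ighmbp2.

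Mrpl49, which has no bacterial counterpart, was at 179, 160 and 191 CPM in si-NC and 128, 121 and 118 CPM in si-METTL3. The lowest control library was above the highest knockdown library, and the log2 fold change was -0.53 ± 0.08 (adjusted p = 0.00869, edgeR). Mrpl9, whose promoter is shown above, was at 99.9, 87.7 and 102 CPM in si-NC and 75.2, 59.98 and 64.2 CPM in si-METTL3 (log2 fold change -0.54 ± 0.11, adjusted p = 0.0176, edgeR). Its groups were apart, but its call held in 3 of the 6 fits with a library left out. Mrpl12, which with Mrpl10 forms the flexible stalk that recruits elongation factors, had, with Mrps18b, the highest FPKM of the genes that fell, and was at 240, 203 and 257 CPM in si-NC against 180, 172 and 173 CPM in si-METTL3. Its log2 fold change was -0.42 ± 0.10 (adjusted p = 0.0255, edgeR), and this call held in 1 of the 6 fits with a library left out (adjusted p from 0.00245 to 0.104). Its stalk partner Mrpl10 was at 109, 90.3 and 109 CPM against 107, 101 and 96.8 CPM and overlapped between the groups. The fold change of Mrpl10 was -0.02 ± 0.09, and whether the 2 stalk genes differ from each other was not tested.

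The other large-subunit genes that fell were Mrpl55 (-0.51), Mrpl46 (-0.48), Mrpl30 (-0.48), Mrpl38 (-0.47), Mrpl47 (-0.44), Mrpl32 (-0.43), Mrpl54 (-0.43), Mrpl37 (-0.38) and Mrpl20 (-0.36), all log2 fold changes. They include counterparts of bacterial L30 (Mrpl30), L32 (Mrpl32) and L20 (Mrpl20) as well as mitochondria-specific proteins such as Mrpl37 and Mrpl38. Of the 5 large-subunit genes with the highest FPKM, Mrpl12, Mrpl30 and Mrpl20 passed the test and the other two did not. Mrpl33, at 176, 161 and 188 CPM in si-NC and 162, 141 and 150 CPM in si-METTL3, overlapped by 1 library (log2 fold change -0.22 ± 0.09, adjusted p = 0.122, edgeR). Mrpl28 was at 147, 130 and 163 CPM against 147, 129 and 135 CPM, with nearly the same range in both groups. The smallest differences in the large subunit, apart from Mrpl10, were those of Mrpl15 (0.02 ± 0.09) and Mrpl18 (0.03 ± 0.09). The signs of these 3, and of Mrpl28, turned under some other settings.

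Among small-subunit genes, 11 of 26 were lower, with a median log2 fold change of -0.29. Whether that share differs from the 14 of 51 in the large subunit was not tested, and the medians of the subunits were close. Mrps17, the counterpart of bacterial S17, a protein that binds ribosomal RNA directly, was at 121, 115 and 121 CPM in si-NC and 89.6, 83.7 and 90.4 CPM in si-METTL3. The libraries within each group were close together, and the log2 fold change of -0.43 ± 0.07 (adjusted p = 0.00837, edgeR) held in 5 of the 6 fits with a library left out. Mrps5, the counterpart of S5 near the mRNA entry site, was at 78.3, 73.7 and 85.8 CPM against 58.4, 55.9 and 56.0 CPM, without overlap, a log2 fold change of -0.48 ± 0.08 (adjusted p = 0.0102, edgeR). Mrps15, the counterpart of S15, had the largest fall of the subunit, from 25.5, 22.5 and 28.0 CPM to 17.1, 17.6 and 17.8 CPM. Its log2 fold change was -0.54 ± 0.11 (adjusted p = 0.0168, edgeR).

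The other small-subunit genes that fell were Mrps18c (-0.47), Mrps26 (-0.47), Mrps31 (-0.47), Mrps10 (-0.40), Mrps18b (-0.39), Mrps22 (-0.38), Mrps2 (-0.35) and Mrps9 (-0.31), as log2 fold changes. Mrps22, with the ETS core shown above, was at 38.5, 37.7 and 39.2 CPM in si-NC and 28.7, 32.0 and 28.0 CPM in si-METTL3, so its control libraries lay close together and apart from the knockdown libraries, and its call held in 1 of the 6 fits with a library left out. Of the 5 small-subunit genes with the highest FPKM, Mrps18b and Mrps17 passed the test, and Mrps7 (-0.24), Mrps34 (-0.09) and Mrps14 (0.04) did not. The smallest differences were those of Mrps14, Mrps6 (0.05) and Mrps35 (-0.05), and each of these 3 overlapped between the groups and changed sign under some other settings.

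The 3 Mrps18 genes encode related proteins with different places in the ribosome. Mrps18c takes the place of bacterial S18 in the small subunit, whereas Mrps18b sits elsewhere in the small subunit and Mrps18a in the large one despite its name, and both of these are counted as mitochondria-specific. Mrps18c was at 29.1, 30.02 and 32.1 CPM in si-NC and 21.8, 22.2 and 21.7 CPM in si-METTL3. Mrps18b, the most abundant of the 3 by FPKM, was at 198, 165 and 199 CPM against 150, 140 and 138 CPM, and Mrps18a at 106, 92.7 and 124 CPM against 88.9, 82.8 and 82.6 CPM. In all 3 every knockdown library was below every control library, but Mrps18a (-0.34 ± 0.11, adjusted p = 0.0735, edgeR) missed the threshold, and its control libraries varied more. Mrps36, a small protein first purified with the ribosome and later assigned to the alpha-ketoglutarate dehydrogenase complex, was at 16.1, 15.0 and 18.3 CPM against 17.0, 13.7 and 13.9 CPM, with overlap and a log2 fold change of -0.15 ± 0.13 (adjusted p = 0.451, edgeR).

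Genes of both origins fell. Of 45 genes with a bacterial counterpart, 16 were lower, with a median log2 fold change of -0.27, and of 32 mitochondria-specific genes, 9 were lower, with a median of -0.31. Across the 78 genes the log2 fold change had a Pearson r of 0.02 with the log2 of mean FPKM, as a description over genes measured in the same 6 libraries. The genes that fell ran in level from Mrps26 at 5.25 FPKM to Mrpl12 and Mrps18b at 129 FPKM.

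The level of the whole group differed between libraries within each group as well. Relative to its own mean over the 6 libraries on the log2 CPM scale, the median mitoribosomal protein gene lay at 0.14, 0.01 and 0.25 in si-NC and at -0.11, -0.18 and -0.16 in si-METTL3. The number of the 78 genes above their own mean was 72, 43 and 75 in the control libraries and 15, 4 and 9 in the knockdown libraries. So si-NC replicate 2 stood between the other control libraries and the knockdown libraries, and it was the lowest si-NC library for 65 genes, while si-NC replicate 3 was the highest for 66. Cytosolic ribosomal protein genes had the same order of libraries in si-NC, with medians of 0.19, 0.03 and 0.31, and lay at -0.13, -0.17 and -0.23 in si-METTL3.

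**Figure D3:**
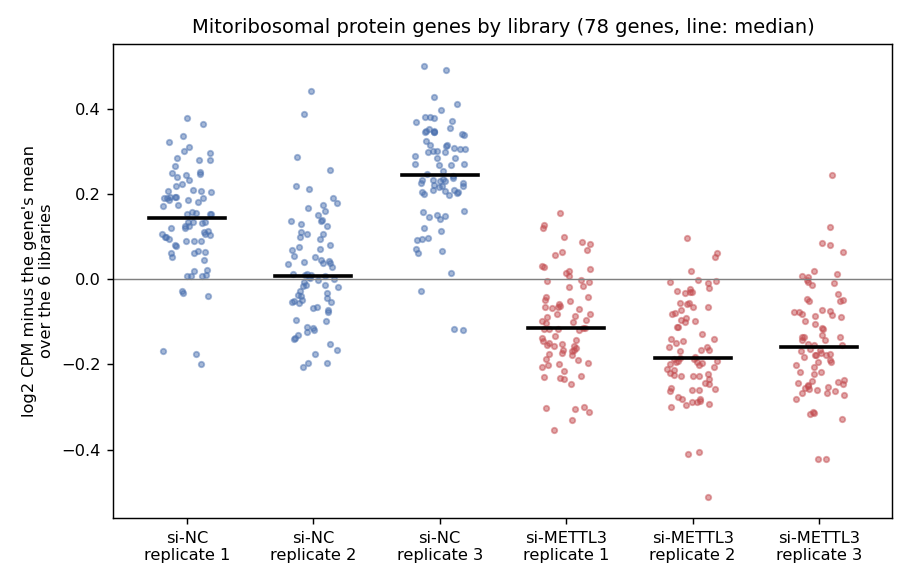
Log2 CPM of each of the 78 genes minus the gene's mean over the 6 libraries, by library (points, genes; black lines, medians). The medians of the 3 si-METTL3 libraries are below 0, those of si-NC replicates 1 and 3 are at 0.14 and 0.25, and that of si-NC replicate 2 is at 0.01.

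The number of genes past the threshold depended on which libraries were tested. Without si-NC replicate 2 it was 51 of 78 (against 18.9% of all tested genes), without si-NC replicate 1 it was 6 (2.91%), and without si-NC replicate 3 it was 13 (6.08%). Without si-METTL3 replicate 1 it was 14 (6.13%), without replicate 2 it was 2 (2.72%) and without replicate 3 it was 3 (2.63%). So the share of mitoribosomal protein genes was above that of all genes in the first 4 of these fits, and it was near the background without si-METTL3 replicate 2 or 3. The median log2 fold change stayed between -0.34 and -0.24, no member was called higher in any of the 6 fits, and 69 genes were negative in each. Of the 25 genes that fell, 2 held in all 6 fits, 6 held in at least 4 and 14 held in at most 2.

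**Figure D4:**
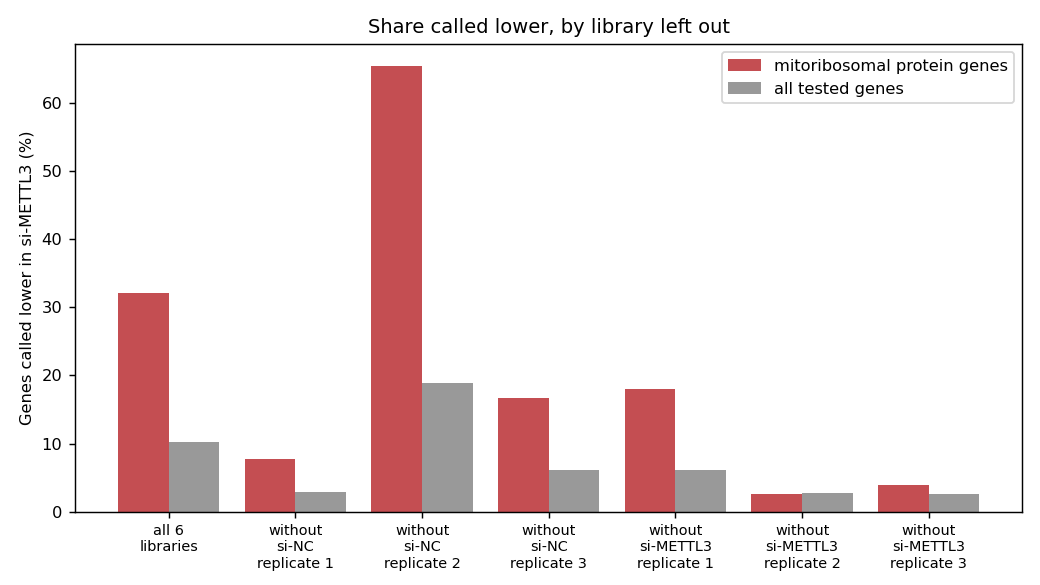
Share of genes called lower in si-METTL3 (edgeR adjusted p under 0.05) among the 78 mitoribosomal protein genes (red) and among all tested genes (grey), with all 6 libraries and with each library left out. The red bar ranges from 2.56% without si-METTL3 replicate 2 to 65.4% without si-NC replicate 2, and the grey bar from 2.63% to 18.9%.

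These genes have short transcripts, and the libraries differed in how counts depended on transcript length. The length implied by the deposited counts and FPKM had a median of 1076 bases for the 78 genes and 2452 bases for all tested genes. Per doubling of length, log2 CPM changed by -0.078, 0.005 and -0.125 in si-NC replicates 1, 2 and 3 and by 0.045, 0.068 and 0.085 in si-METTL3 replicates 1, 2 and 3, so relative to longer genes short genes were read more in si-NC replicates 1 and 3 and less in si-METTL3. With per-library corrections for this length and for GC content, 31 of the 78 genes were lower and none was higher, against 17.1% lower and 9.91% higher of all tested genes. With this correction the median log2 fold change of the 78 genes was -0.20 and that of all tested genes -0.04, so the distance between the medians shrank from -0.30 to -0.17. Every si-METTL3 slope lay above every si-NC slope, so the correction also removes any difference between the groups that follows length. The source of that difference was not tested. Of the 25 genes, 21 were past the threshold with implied length as well, and Mrpl47, Mrpl32, Mrpl20 and Mrps9 were not. With the annotated length of the longest transcript in place of implied length, 30 were lower and 1, Mrpl18, was higher, against 18.0% and 10.3% of all tested genes. The medians were then -0.19 for the 78 genes and -0.05 for all tested genes, a distance of -0.14, and 21 of the 25 genes passed, without Mrpl32, Mrps10, Mrpl20 and Mrps9.

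Correlations with length are given as descriptions. Over the 78 genes, log2 fold change had a Pearson r of -0.13 with log2 length, and over 12749 genes it was 0.22, both over genes that share the same libraries. The fold changes before and after correction for implied length had an r of 0.84. Mrpl11 stayed the leading gene, with a corrected log2 fold change of -0.68 (adjusted p = 0.000244, edgeR). Mrps25, whose implied length of 6070 bases was the longest of the 78, went from a log2 fold change of -0.20 to -0.54 (adjusted p = 0.011 after correction, edgeR).

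**Figure D5:**
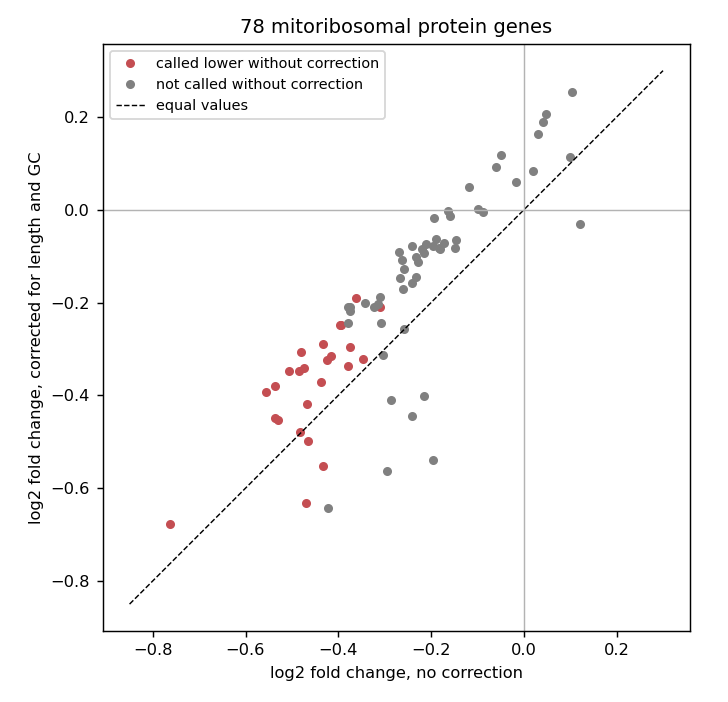
Log2 fold change of each of the 78 genes without correction (x axis) and with correction for implied transcript length and GC content (y axis), from edgeR; red points passed the adjusted p threshold without correction and the dashed line marks equal values. Most points lie above the line, that is, at a higher value after correction, while Mrpl11 stays lowest at -0.76 and -0.68.

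The same comparison in other protein-coding groups places these values. Of 80 tested cytosolic ribosomal protein genes, 43 were lower and none was higher, with a median log2 fold change of -0.37, so these had a larger share and a lower median than the mitochondrial set. Of 78 tested nuclear genes of the respiratory chain and ATP synthase, 10 were lower (12.8%) and none was higher by edgeR, a share near that of all genes, with a median of -0.20. DESeq2 called 16 of these lower and 1 higher, and each length correction called 2 higher. At an unadjusted p under 0.05, 29 respiratory chain genes were lower and 1 was higher (edgeR). The sign was negative for 72 of the 78 respiratory chain genes and 78 of the 80 cytosolic genes, against 6142 of all 13082. All 3 si-METTL3 libraries lay below all 3 si-NC libraries in 43.6% and 80.0% of these 2 groups, against 21.3% of all tested genes. After the length and GC correction the medians were -0.23 for the cytosolic genes, -0.20 for the mitoribosomal genes and -0.09 for the respiratory chain genes, so the first 2 groups came close together.

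Other mitochondrial genes were taken from lists of ribosomal subunits outside the Mrp series, translation factors, ribosome assembly, and mitochondrial transcription, RNA turnover and DNA replication. Not every gene of these lists acts in translation itself. Of 68 such genes in the table, all of which were tested, 12 were lower and none was higher by edgeR (2 with an unadjusted p under 0.05, and 1 by DESeq2), with a median log2 fold change of -0.14, where 10.2% of all tested genes were lower. A further 5 mitoribosomal subunits carry names outside the Mrp series. Aurkaip1 was at 92.0, 79.2 and 90.9 CPM in si-NC and 69.0, 67.0 and 68.0 CPM in si-METTL3, and Chchd1 at 40.3, 39.3 and 40.5 CPM against 35.1, 31.8 and 30.3 CPM. Both fell without overlap (log2 fold changes of -0.36 and -0.30, adjusted p = 0.0237 and 0.0495, edgeR), and each also in 1 of the 6 fits with a library left out. Dap3 (0.01 ± 0.09), Ptcd3 (-0.004 ± 0.13) and Gadd45gip1 (-0.28 ± 0.10) did not pass, and the signs of Dap3 and Ptcd3 turned under some other settings.

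Assembly and ribosomal RNA modification factors held the strongest member of the pathway. Grsf1, an RNA-binding protein of mitochondrial RNA granules, was at 165, 156 and 163 CPM in si-NC and 93.1, 84.8 and 94.0 CPM after knockdown, a wide gap. Its log2 fold change of -0.83 ± 0.07 (adjusted p = 0.0009, edgeR) held in all 6 fits with a library left out. Of the 29 genes of this list, 7 (24.1%) were lower and none was higher by edgeR, against 10.2% and 8.67% of all tested genes. The others were Ybey (-0.59), an endoribonuclease that acts in ribosome assembly, the GTPases Mtg2 (-0.49) and Noa1 (-0.44), the pseudouridine synthases Rpusd4 (-0.49) and Trub2 (-0.41), and Rcc1l (-0.41). Of these, Ybey, Mtg2, Noa1 and Rpusd4 each held in 3 of the 6 fits with a library left out, Rcc1l in 2 and Trub2 in 1.

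Of 18 translation factors, 3 (16.7%) were lower and none was higher by edgeR, against 10.2% and 8.67% of all tested genes. The median log2 fold change of the list was -0.02, with 9 negative and 9 positive. The 3 were Taco1 (-0.43), the translational activator of cytochrome oxidase subunit 1, Oxa1l (-0.36), the insertase that receives nascent chains at the inner membrane, and Tufm (-0.34), the elongation factor that brings in aminoacyl-tRNA. Tufm was at 172, 155 and 181 CPM in si-NC and 137, 137 and 129 CPM in si-METTL3, without overlap (adjusted p = 0.0276, edgeR), a call that held in 1 of the 6 fits with a library left out. Pdf, the deformylase of mitochondrial proteins, was at 2.17, 1.96 and 3.05 CPM in si-NC and 5.1, 3.3 and 4.5 CPM in si-METTL3, also apart (log2 fold change 0.85 ± 0.25, adjusted p = 0.0533, edgeR). DESeq2 and both length corrections called 1 gene of the list higher, and after correction for annotated length Pdf had an adjusted p of 0.012 (edgeR). None of the 16 genes of mitochondrial transcription, RNA turnover and DNA replication passed the edgeR test, 1 in each direction had an unadjusted p under 0.05, and DESeq2 called 0.

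Of 11 regulators of mitochondrial biogenesis, 1 was lower and none was higher by edgeR, where 10.2% of all tested genes were lower, while 4 lower and 2 higher had an unadjusted p under 0.05 and DESeq2 called 2 lower and 1 higher. Myc, a transcription factor that drives ribosome production in many cells, was at 227, 213 and 235 CPM in si-NC and 142, 148 and 135 CPM in si-METTL3. Its log2 fold change of -0.67 ± 0.07 (adjusted p = 0.00202, edgeR) held in all 6 fits with a library left out. Nrf1, whose site is in few of the promoters, had a log2 fold change of -0.13 ± 0.07 (adjusted p = 0.244, edgeR). Of the genes for GABP subunits, Gabpb1 was at -0.33 ± 0.09 without overlap and just missed the threshold (adjusted p = 0.0501, edgeR). Its adjusted p was 0.00549 after correction for annotated length and 0.0356 with implied length (edgeR). Gabpa was at 0.28 ± 0.27, with overlap (adjusted p = 0.482, edgeR). Ppargc1a, a coactivator of mitochondrial biogenesis, was at 7.67, 11.7 and 6.89 CPM in si-NC and 12.8, 16.0 and 14.4 CPM in si-METTL3, without overlap, and missed the threshold (log2 fold change 0.72 ± 0.21, adjusted p = 0.0562, edgeR). The mRNAs that the mitochondrial ribosome translates had mostly positive fold changes, 12 of 13. Of these, mt-Nd4l (0.91) and mt-Nd3 (0.65), subunits of complex I, were higher by edgeR and none was lower, where 8.67% of all tested genes were higher. The median was 0.55 on the log2 scale, and DESeq2 called 6 higher. mt-Nd4l was at 12.1, 17.5 and 12.5 CPM in si-NC and 19.6, 31.8 and 27.8 CPM in si-METTL3, so the groups did not overlap (adjusted p = 0.0293, edgeR), in 2 of the 6 fits with a library left out.

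Some mitoribosomal protein genes start near the start of a gene on the other strand. The genes of such a pair either diverge or overlap at their starts. How common such pairs are among all genes was not counted. In GENCODE M21, 33 of 78 had such a neighbour with its start within 1000 bases, and 28 of these neighbours were tested and were not members themselves. Of the 28, 5 were lower and 2 were higher, against 10.2% and 8.67% of all tested genes. The sequence between the starts is printed for 2 pairs in which both genes fell, chosen after their values were seen: Mrpl49 and Fau, which encodes a cytosolic ribosomal protein fused to a ubiquitin-like protein (chr19:6057786-6057843, minus strand, GRCm38.p6), and Mrpl30 and Mitd1, a protein of the last step of cell division (chr1:37890412-37890476, plus strand, GRCm38.p6). Each is read on the strand of the Mrpl gene, and no ETS, NRF1 or YY1 core lay in either.
Mrpl49: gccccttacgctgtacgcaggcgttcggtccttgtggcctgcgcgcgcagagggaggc
Mrpl30: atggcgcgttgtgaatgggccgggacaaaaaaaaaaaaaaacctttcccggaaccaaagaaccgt

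The annotated starts of Mrpl49 and Fau were 59 bases apart, and Fau was at 274, 234 and 294 CPM in si-NC and 194, 148 and 166 CPM in si-METTL3, without overlap (log2 fold change -0.66 ± 0.13, adjusted p = 0.0155, edgeR). Those of Mrpl30 and Mitd1 were 66 bases apart. Mitd1 was at 29.5, 33.9 and 31.2 CPM against 16.3, 18.8 and 17.7 CPM, again apart (log2 fold change -0.84 ± 0.10, adjusted p = 0.00313, edgeR). The starts of Mrps18b and Ppp1r10, a regulator of protein phosphatase 1, were 45 bases apart, and Ppp1r10 was at -0.66 ± 0.19 (adjusted p = 0.0499, edgeR). Mrpl46 and Mrps11, members of the 2 subunits, start opposite each other and overlap, and only Mrpl46 passed the test, with Mrps11 at -0.38 ± 0.12 (adjusted p = 0.0616, edgeR). Wdfy1, which by annotation overlaps Mrpl44, was lower at -0.36 ± 0.10 (adjusted p = 0.0427, edgeR), and Gga3, which overlaps Mrps7, at -0.31 ± 0.06 (adjusted p = 0.0184, edgeR). Mrpl44 (-0.315) and Mrps7 (-0.242) did not pass. The 2 neighbours that were higher were Klc4, next to Mrpl2 (log2 fold change 0.43 ± 0.11, adjusted p = 0.0342, edgeR), and Tcp1, which overlaps Mrpl18 (0.27 ± 0.07, adjusted p = 0.0346, edgeR). Mrpl2 (-0.228) and Mrpl18 (0.031) did not pass.

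Transcripts of the same genes that are annotated as noncoding were measured in the deposited lncRNA table. It listed 61 such transcripts of 36 of the 78 genes, of which 26 from 20 genes passed the filter on low counts. None passed the adjusted threshold, against 0.733% of all tested transcripts in either direction (edgeR), and 2 had an unadjusted p under 0.05. These were chosen after their values were seen. A noncoding transcript of Mrpl27 (ENSMUST00000125148) was read 97, 68 and 109 times in si-NC and 30, 14 and 40 times in si-METTL3, without overlap (log2 fold change -1.42 ± 0.38, adjusted p = 0.157, edgeR). One of Mrpl47 (ENSMUST00000153564) was read 240, 200 and 192 times against 134, 94 and 113 times (-0.60 ± 0.18, adjusted p = 0.191, edgeR). How reads were divided between these transcripts and the coding ones of the same gene is stated nowhere in the labels or file headers.

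The authors' deposited table, with its own test, listed 31 of the 78 genes as lower and 0 as higher at an adjusted p under 0.05, against 6.44% and 5.44% of its 22298 genes. That base includes 4631 genes without counts in any library, so these shares are not on the same base as those of the 13082 genes tested here. All 25 genes called here were among the 31. GENCODE lists 5 Mrp pseudogenes with -ps names. By annotation 26 of the 78 genes overlap another protein-coding gene. Of the 25 that fell, 5 do so, namely Mrpl21, Mrpl9, Mrpl49, Mrpl46 and Mrpl47. Whether counting used strand, and how reads shared by overlapping genes or pseudogenes were divided, is not stated in the labels or file headers, so these genes' counts are less certain.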

How the data were processed

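Tables of 22298 mRNA genes and 30924 lncRNA transcripts were deposited by the authors and, per the file headers, hold whole-number counts and FPKM per library, with the authors' group means, log2 fold changes, p-values and adjusted p-values. The submitters' processing notes name fastp, Bowtie2, StringTie, RSEM and mm9, with no versions or roles. The labels and headers do not name the authors' test. From the counts, genes were filtered with filterByExpr, scaled by TMM and tested with edgeR 4.0.16 (quasi-likelihood test, Benjamini-Hochberg over all 13082 tested genes, threshold 0.05), without covariates. limma 3.58.1 and DESeq2 1.42.0 served as alternatives. CPM are counts per 1000000 of TMM-scaled library size (for marker sums, of the library total). The test was also run on simulated counts. These lacked the dependence on transcript length that differed between the libraries, so that check does not cover it. Transcript length was also inferred from the ratio of deposited counts to FPKM, and for 98.4% of 1310 genes with 1 annotated transcript it was within 10% of the annotated length. Coordinates and neighbours come from GENCODE M21 (GRCm38), which matched all 78 genes, and promoters from RefSeq (GRCm38.p6). Neither is the authors' build, and no coordinates were converted.

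The members and lists were chosen with earlier results of these data known. Named genes were Mettl3, every member past the threshold, per subunit the 5 with the highest mean FPKM and the 3 with the smallest absolute log2 fold change, the Mrps18 paralogs, Mrps36, the subunits outside the Mrp series, and up to 4 genes per list and direction past the threshold. Mrps30, Mrps25, Mrpl50, Nrf1, Gabpb1, Gabpa, Pdf, Ppargc1a, further assembly factors, Mrps11 and the neighbouring genes were named after their values were seen. The implied-length correction, the lncRNA test and the neighbour counts were added after seeing the data. Only 3 libraries per group limit the precision.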

Additional observations from a re-analysis of the deposited data

How the results depend on the processing

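Among mitoribosomal protein genes, 22 to 31 were lower under DESeq2 size factors, no count filter, DESeq2, limma-voom, the 3 FPKM settings and both length corrections without a block, and the median log2 fold change lay between -0.28 and -0.19. The replicate block gave 11 lower members (14.1%) and 5 lower pathway genes, where 5.43% of all tested genes were lower. The labels do not say whether the replicate numbers pair the libraries. Deviations of same-numbered libraries from their group means had correlations of 0.07, 0.2 and -0.31 (and only si-METTL3 replicate 2 correlated best with its own number). Such deviations sum to 0 within a group, so these correlations cannot show whether same-numbered libraries shared a culture or batch. Fits with a library left out gave 2 to 51 lower members (0 higher in each), with medians from -0.34 to -0.24, and 1 to 19 lower and 0 to 3 higher pathway genes. Correction for annotated length and GC content, with or without the replicate block, made 1 member (Mrpl18) higher. Pathway genes higher were 1 under DESeq2 size factors, DESeq2, limma on FPKM with a pseudocount of 1 or 0.1, and all 3 length corrections. The 0 members called higher in the main test had 0 at an unadjusted p under 0.05, and 0 with DESeq2.

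Signs turned for genes near 0. With annotated length, without and with the block, Dap3 was at -0.11 and -0.11, Mrpl10 at 0.12 and 0.12, Mrpl15 at -0.13 and -0.12, and Mrps14 at -0.17 and -0.13. With implied length, Mrpl10 was at 0.059, Mrpl28 at 0.002 and Mrps35 at 0.12. In limma on FPKM with a pseudocount of 1, with 0.1 and without a filter, Mrpl10 was at 0.006, 0.006 and 0.006, and Ptcd3 at 0.021, 0.022 and 0.021. Ptcd3 was at 0.006 in limma-voom and at 0.005 with the replicate block. Leaving out a library gave -0.051 to 0.055 for Dap3, -0.103 to 0.026 for Mrpl10, -0.024 to 0.07 for Mrpl15, -0.041 to 0.06 for Mrpl18, -0.044 to 0.11 for Mrps14, -0.089 to 0.005 for Mrps35, -0.04 to 0.10 for Mrps6 and -0.14 to 0.12 for Ptcd3. The cause was not tested for any of these. For the named genes, 676 other values kept sign and side of the threshold, 177 kept the sign but missed the threshold and 12 came to pass it.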
